A study of Mus musculus with 6 samples.

Results

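The transcription factor p53 is encoded by *Trp53* in the mouse. That gene and 33 others listed as p53 targets or feedback regulators were followed in primary mouse articular chondrocyte RNA after *Sephs1* siRNA transfection. The 34 genes were taken by symbol from the deposited gene table, which lists 24532 genes, and were chosen for their known roles in growth arrest, apoptosis, DNA repair and feedback on p53. All 34 were found, and all 34 had at least 1 read in each library, as did 14223 genes of the table. The tested cells received 50 nM of *Sephs1* siRNA, against *Sephs1*, the gene of selenophosphate synthetase 1, and the control cells received 50 nM of negative control siRNA. The chondrocytes of both groups were isolated from knee cartilage (femoral condyle and tibial plateau) of ICR mice aged 5 days, were transfected for 12 h followed by 48 h in fresh medium, 2 times over, and were kept at 3% O2. Each group had 3 biological replicates. A single *Sephs1* siRNA condition was sequenced, so effects of the gene's loss and of the siRNA itself cannot be told apart.

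In unstressed cells p53 is made continuously and destroyed continuously, because MDM2 marks it for degradation while MDM4 blocks its activity. DNA damage, oxidative stress and other insults stop this turnover. The stabilised protein then binds DNA as a tetramer and switches on genes that halt the cell cycle, repair DNA or kill the cell, and among them *Mdm2* itself, which closes a feedback loop. Its activity is set mainly by protein stability, so the mRNA of *Trp53* alone says little about it and the mRNA of its targets is the usual readout. In cartilage, p53 and its target p21 are known for their place in chondrocyte senescence, the question that the RNA sequencing was part of.

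The DNA sites that p53 binds are built from copies of a palindromic element of 10 bases, the p53 half-site, with 3 purines, a core of C, 2 bases of A or T and G, and 3 pyrimidines. RefSeq promoter windows of GRCm38.p6, from 250 bases before to 50 bases after a start site, were available for 26 of the 34 genes. A half-site was present in the windows of 10 of these 26, or 38.5%, against 8.36% of all 32851 windows and 9.55% of all 27025 genes with a window. Because the element is its own reverse complement, a search of 1 strand covers both. The elements are printed because they mark which members carry the p53 sequence next to a RefSeq start site. Those of *Sesn1* and *Polk* lie inside the gene (chr10:41810574-41908436 and chr13:96480687-96542579), at a start site other than its outermost one. Each lies within 15 bases of sequence on either side, 5′ to 3′ on the strand of the gene, with the half-site in capitals.
Trp53 (chr11:69580269-69580308, plus strand): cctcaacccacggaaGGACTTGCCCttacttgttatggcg
Mdm2 (chr10:117710920-117710959, minus strand): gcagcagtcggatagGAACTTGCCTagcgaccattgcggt
Ppm1d (chr11:85311107-85311146, plus strand): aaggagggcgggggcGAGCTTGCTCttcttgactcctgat
Ccng1 (chr11:40755447-40755486, minus strand): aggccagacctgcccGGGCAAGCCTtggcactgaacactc
Gadd45a (chr6:67037423-67037462, minus strand): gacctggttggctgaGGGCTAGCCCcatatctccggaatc
Sesn1 (chr10:41887251-41887290, plus strand): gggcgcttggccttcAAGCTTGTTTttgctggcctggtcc
Bax (chr7:45467075-45467114, minus strand): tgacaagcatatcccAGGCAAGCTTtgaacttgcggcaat
Aen (chr7:78895922-78895961, plus strand): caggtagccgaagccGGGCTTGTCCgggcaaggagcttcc
Ei24 (chr9:36797320-36797359, minus strand): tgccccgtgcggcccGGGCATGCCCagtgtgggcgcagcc
Polk (chr13:96519394-96519433, minus strand): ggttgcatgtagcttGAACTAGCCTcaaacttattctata

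None of the 35 member windows held a full site, that is, a pair of half-sites with at most 13 bases between them, and 0.0731% of all windows did. *Cdkn1a*, the gene of p21 and the best known p53 target, is not among the 34 genes, but it had such a window. Its pair of strict matches to the half-site pattern is shown, with 12 bases between its elements. The bases directly after the downstream element, tgacatgttc, miss the pattern only at their opening base, which is T and not a purine. They were left in lower case, so the capitals mark strict matches and need not mark the pair or the spacing that p53 uses.
Cdkn1a (chr17:29090891-29090952, plus strand): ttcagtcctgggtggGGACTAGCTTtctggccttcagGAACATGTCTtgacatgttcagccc

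A match is a description of the letters and does not show binding. Many known p53 sites lie in introns or farther upstream, outside these windows.

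The libraries held between 58214060 and 80887889 counted reads. *Sephs1* itself was at 36.1, 24.9 and 21.5 CPM (counts scaled to library size with TMM factors) with *Sephs1* siRNA and at 50.7, 44.7 and 44.7 CPM with control siRNA, so all 3 knockdown libraries were below all 3 control libraries (log2 fold change -0.76, standard error (SE) 0.19, adjusted p = 0.392 by edgeR and 0.04 with a block for replicate number). Of 13 chondrocyte markers, 12 were in the table under the symbols searched. At an unadjusted p without the block, 1 of the 12, *Lect1*, was lower, against 3.63% of all genes. With the block 1 was higher and 7 were lower, against 13.1% and 11.2% of all genes. At an adjusted p with the block, 2 of the 7 were lower, against 0.816% of all genes. *Col2a1*, the main cartilage collagen, averaged 14624 FPKM with *Sephs1* siRNA and 15823 FPKM with control siRNA. Of 12 macrophage and leukocyte markers, 5 had no read in any library, and their summed level was 8.76 to 11.1 CPM with *Sephs1* siRNA and 8.13 to 10.4 CPM with control siRNA. Of 10 fibroblast markers, 1 was higher and 4 were lower at an adjusted p with the block, against 0.83% and 0.816% of all genes. Of 5 osteoblast markers tested 1 was lower by that measure, *Alpl* (log2 fold change -1.27, edgeR adjusted p = 0.018 with the block and 0.0017 with DESeq2). The part of these markers in the values of the 34 genes was not tested. Because libraries of equal replicate number shared deviations, a fit with that number as a block stands beside the fit without it. In bulk RNA, fewer cells that express a gene and less RNA per cell cannot be told apart.

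Nearly all of these genes were expressed at readable levels in both groups. Per kilobase of transcript, *Plk2*, a stress-induced polo-like kinase, had the highest mean over the 6 libraries, with 89.4 ± 12.1 FPKM with *Sephs1* siRNA and 78.8 ± 9.96 FPKM with control siRNA (SD, n = 3 each). *Gadd45g* stood close to it, at 78.6 ± 16.3 FPKM with *Sephs1* siRNA and 87.7 ± 13.5 FPKM with control siRNA (SD, n = 3 each), and was above *Plk2* with control siRNA. *Bax*, *Ccng1*, *Btg2* and *Mdm2* followed, each above 50 FPKM in both groups. *Trp53* itself was at 38.7 ± 1.44 FPKM with *Sephs1* siRNA and 38.2 ± 3.32 FPKM with control siRNA (SD, n = 3 each). At the low end stood *Pmaip1*, the gene of the BH3-only protein NOXA, with 0.496 ± 0.221 FPKM with *Sephs1* siRNA and 0.424 ± 0.133 FPKM with control siRNA (SD, n = 3 each). *Pidd1*, which encodes the scaffold of the caspase-activating PIDDosome, followed with 0.866 ± 0.184 FPKM with *Sephs1* siRNA and 0.781 ± 0.209 FPKM with control siRNA (SD, n = 3 each). Levels within the pathway thus ran from under 1 FPKM to over 50 FPKM.

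**Figure D1:**
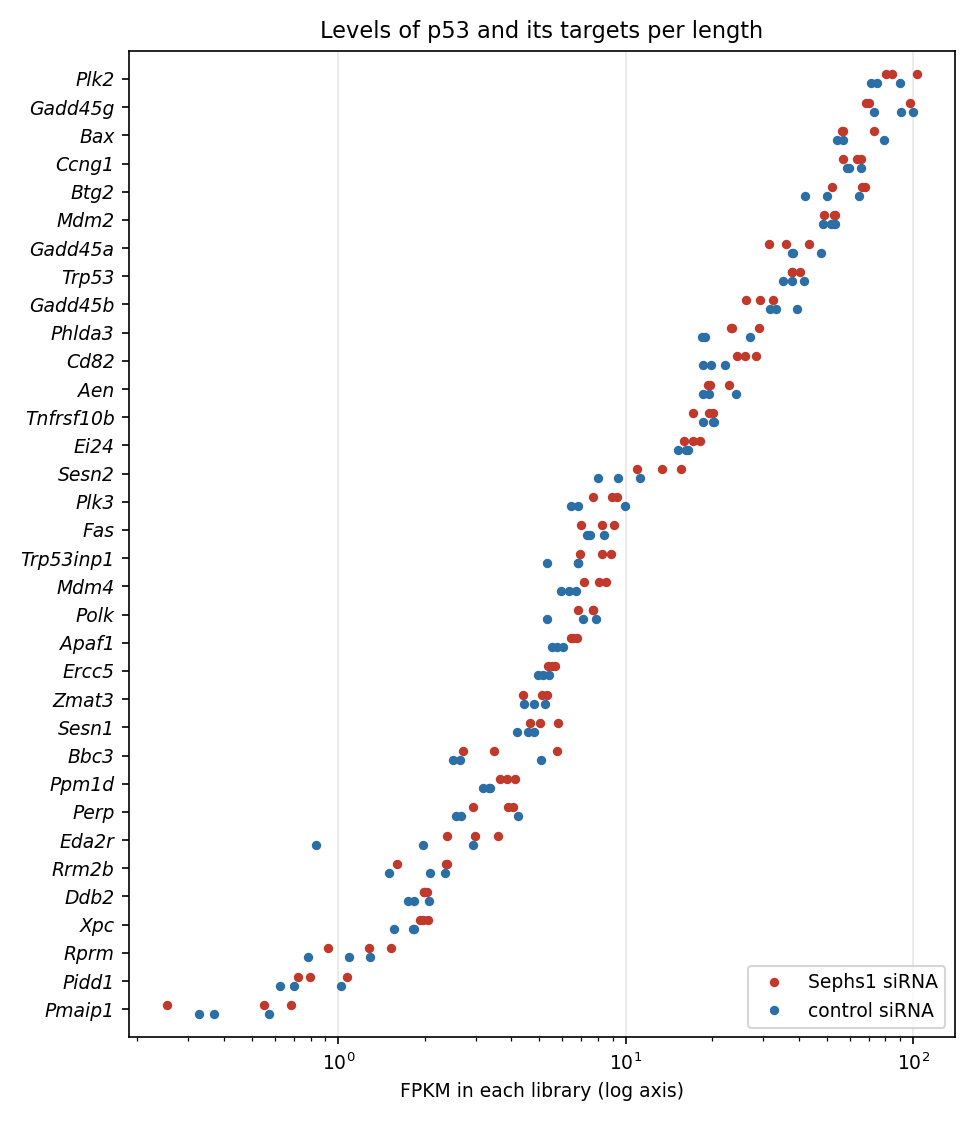
FPKM of each of the 34 genes in every library, on a log axis, with 3 *Sephs1* siRNA libraries in red and 3 control siRNA libraries in blue; genes run by their mean over the 6 libraries. *Plk2* has the highest mean and *Pmaip1* the lowest, and for most genes the red and blue points of a row overlap.

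With *Sephs1* siRNA no gene of the 34 had a fitted change of 2-fold or more. At an unadjusted p under 0.05 (edgeR quasi-likelihood test, no block), 4 of the 34 were higher, *Cd82*, *Mdm4*, *Sesn2* and *Trp53inp1*, against 4.98% of all 14223 genes tested, and 1 was lower, *Gadd45b*, against 3.63%. None passed an adjusted p under 0.05 over all genes with edgeR or with DESeq2. With edgeR 0.0141% of all genes passed that threshold, and the share with DESeq2 is not given here. With the replicate block, *Cd82* and *Sesn2* rose at an adjusted p under 0.05, 2 of 34 against 0.83% of all genes, and no member fell, against 0.816%. At an unadjusted p with the block, 9 were higher and 4 lower, against 13.1% and 11.2% of all genes. The groups did not overlap for 5 of the 34 genes, with 4 higher in every knockdown library (7.8% of all genes) and 1 lower in every one (7.09%), so the share of separated genes, 14.7%, was close to the 14.9% over all genes. The median log2 fold change of the 34 was 0.10, with 24 positive and 10 negative values, and that of all genes tested was 0.01, with 52.0% positive. These counts moved when single libraries were left out. Without *Sephs1* siRNA replicate 2 or without control siRNA replicate 1, 1 gene was left at the unadjusted p. The median was 0.02 without control siRNA replicate 1. The shares of all genes in those fits are not given here, so the drop is not a result about the 34 genes alone.

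**Figure D2:**
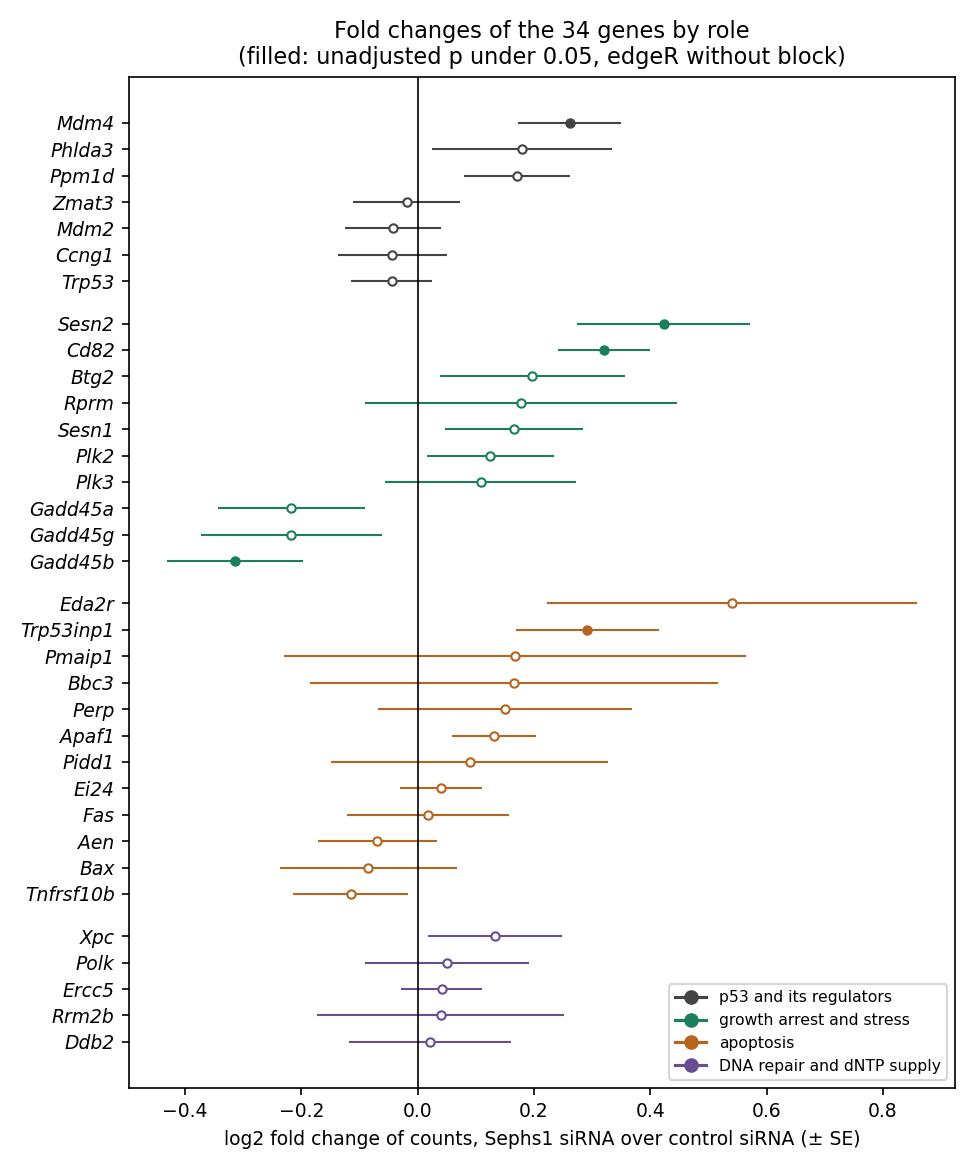
Log2 fold change of each gene with its standard error, *Sephs1* siRNA over control siRNA, grouped by role; filled points passed an unadjusted p under 0.05 in edgeR without the block. The 5 filled points lie between -0.31 and 0.42, and *Trp53*, *Mdm2*, *Ccng1* and *Zmat3* sit next to 0.

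At the core of the pathway, *Trp53* and *Mdm2* had fold changes near 0 with narrow intervals. *Trp53* was at 67.8, 68.3 and 69.8 CPM in the *Sephs1* siRNA libraries and at 71.4, 65.8 and 75.1 CPM in the control libraries. The knockdown values fell inside the control range, and the log2 fold change was -0.04 (SE 0.07, 95% confidence interval -0.21 to 0.12). *Mdm2*, which encodes the ubiquitin ligase that degrades p53 and is at the same time a direct p53 target, was at 165, 166 and 147 CPM with *Sephs1* siRNA and at 175, 167 and 152 CPM with control siRNA. These groups overlapped too, with a log2 fold change of -0.04 (SE 0.08, interval -0.24 to 0.15). Its level followed the replicate number, with replicate 3 lowest in both groups. *Ccng1*, the gene of cyclin G1, a target that brings a phosphatase to MDM2, had a log2 fold change of -0.04 (SE 0.09), and *Zmat3*, which encodes an RNA-binding zinc finger protein, one of -0.02 (SE 0.09).

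*Mdm4*, the gene of the inhibitor that pairs with MDM2, was the 1 gene of these 7 at an unadjusted p under 0.05. It was at 51.8, 61.8 and 56.2 CPM with *Sephs1* siRNA and at 45.3, 50.4 and 46.0 CPM with control siRNA, and the lowest knockdown value lay above the highest control value. The log2 fold change was 0.26 (SE 0.09, unadjusted p = 0.0216 and adjusted p = 0.493 by edgeR, adjusted p = 0.0613 with the block), higher in 3 of 3 replicate pairs. Leaving out *Sephs1* siRNA replicate 2, control siRNA replicate 1 or control siRNA replicate 3 took it past an unadjusted p of 0.05, up to 0.081. *Ppm1d*, which encodes the phosphatase WIP1 that switches off p53 and the kinases upstream of it, was also separated, with 10.7, 11.3 and 11.6 CPM with *Sephs1* siRNA and 9.79, 10.2 and 9.76 CPM with control siRNA. Its log2 fold change of 0.17 (SE 0.09) did not pass (unadjusted p = 0.102 by edgeR). *Phlda3*, a repressor of the kinase AKT, had a log2 fold change of 0.18 (SE 0.15, unadjusted p = 0.285 by edgeR and 0.0236 with the block).

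**Figure D3:**
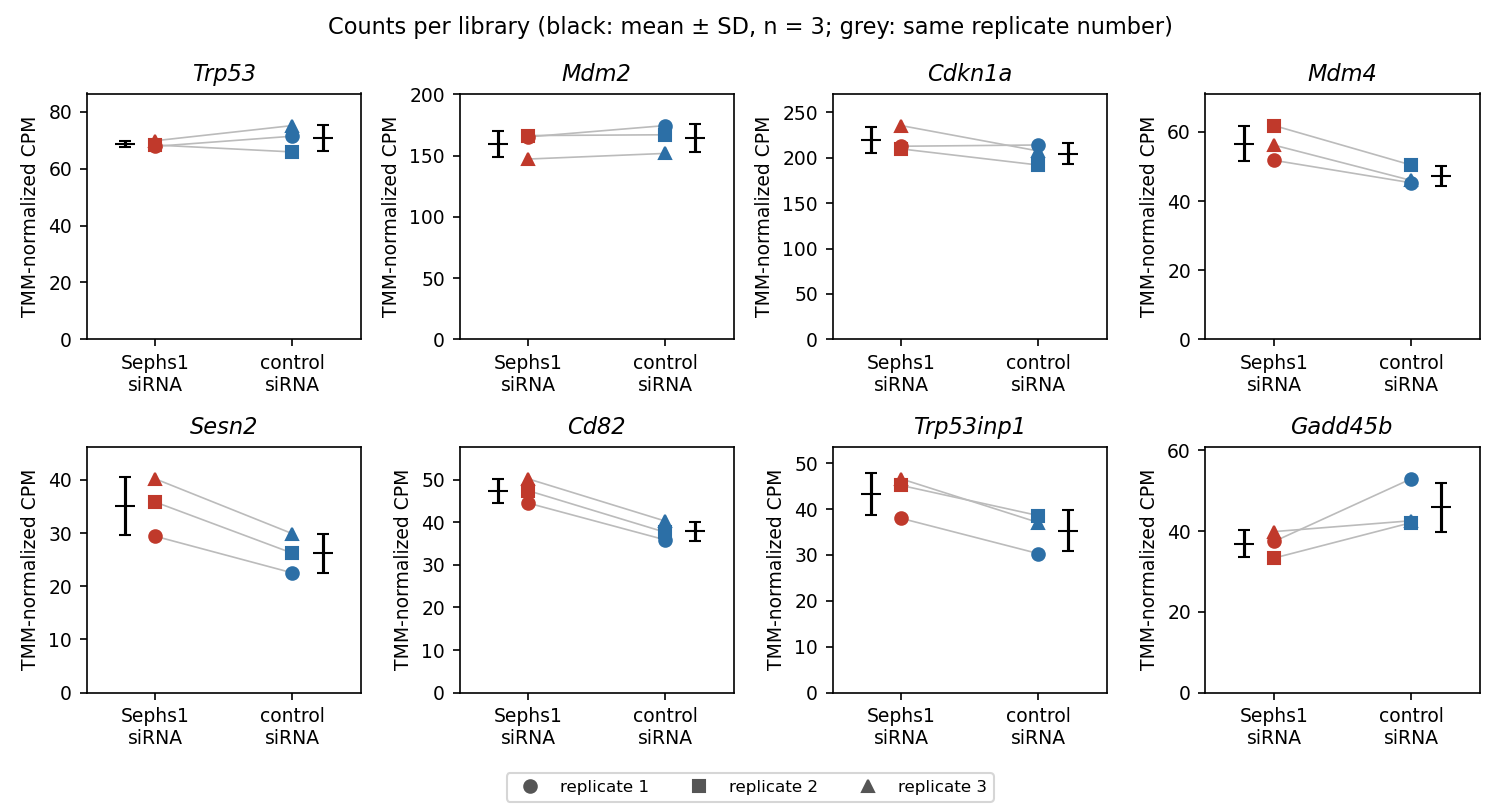
TMM-normalized CPM of 8 genes in each library, *Sephs1* siRNA in red and control siRNA in blue, with replicate numbers as symbols, same-numbered libraries joined in grey and mean ± SD in black (n = 3). *Trp53*, *Mdm2* and *Cdkn1a* overlap between the groups, *Mdm4*, *Sesn2*, *Cd82* and *Trp53inp1* are higher with *Sephs1* siRNA in all 3 pairs, and *Gadd45b* is lower in all 3.

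Among the 10 genes of growth arrest and stress, both members that rose with the block were found. *Cd82*, which encodes a tetraspanin of the cell surface known as a metastasis suppressor, was at 44.5, 47.4 and 50.2 CPM with *Sephs1* siRNA and at 35.9, 37.6 and 40.3 CPM with control siRNA. The groups did not overlap, and the increase was nearly the same in each pair, with log2 ratios of 0.31, 0.33 and 0.32 in pairs 1, 2 and 3. The log2 fold change was 0.32 (SE 0.08, unadjusted p = 0.00506 and adjusted p = 0.392 by edgeR, adjusted p = 0.0392 with the block), and the unadjusted p stayed under 0.05 whichever library was left out. With DESeq2 its adjusted p was 0.0751.

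*Sesn2*, the gene of sestrin 2, a leucine sensor that restrains mTORC1 and that ATF4 and NRF2 also induce, was at 29.4, 35.8 and 40.2 CPM with *Sephs1* siRNA and at 22.5, 26.2 and 29.9 CPM with control siRNA. The groups touched, since the lowest knockdown value lay just under the highest control value, but each knockdown library was above its same-numbered control, with log2 ratios of 0.39, 0.45 and 0.43. The log2 fold change was 0.42 (SE 0.15, unadjusted p = 0.0255 and adjusted p = 0.508 by edgeR, adjusted p = 0.0356 with the block). Without the block its unadjusted p passed 0.05 when *Sephs1* siRNA replicate 2 or 3 or control siRNA replicate 1 or 2 was left out, up to 0.0824. With the block and without any one pair, both genes kept an unadjusted p under 0.05, with log2 fold changes of 0.31 to 0.32 for *Cd82* and 0.41 to 0.43 for *Sesn2*, and both lost the adjusted call without pair 1 or pair 2. *Sesn1*, the other sestrin of the list and the one with a half-site next to an internal start site, had a log2 fold change of 0.17 (SE 0.12).

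The 3 *Gadd45* genes, which encode small stress proteins that bind PCNA, p21 and a kinase upstream of p38, stood lower in every pair. *Gadd45b* was at 37.5, 33.3 and 39.9 CPM with *Sephs1* siRNA and at 52.97, 42.1 and 42.6 CPM with control siRNA, without overlap. The log2 fold change was -0.31 (SE 0.12, unadjusted p = 0.0322 and adjusted p = 0.538 by edgeR, adjusted p = 0.105 with the block). Its largest difference was in pair 1, and the unadjusted p was past 0.05 without *Sephs1* siRNA replicate 1 or 2 or control siRNA replicate 1, up to 0.106. *Gadd45a*, the family's classical p53 target, had 38.8, 44.5 and 51.5 CPM with *Sephs1* siRNA and 49.2, 48.9 and 58.7 CPM with control siRNA, a log2 fold change of -0.22 (SE 0.13) that passed an unadjusted p with the block (edgeR adjusted p = 0.096) but not without it (edgeR adjusted p = 0.69). Its exons share 337 bases with a transcript on the opposite strand, *E230016M11Rik*, and whether the counting used strand is not given in the sources used here. *Gadd45g* had 76.4, 74.5 and 102 CPM with *Sephs1* siRNA and 103, 82.8 and 109 CPM with control siRNA, also a log2 fold change of -0.22 (SE 0.16, unadjusted p = 0.0298 by edgeR with the block and 0.207 without it). None of the 3 passed an adjusted p over all genes in either fit with all libraries.

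The remaining arrest genes had no call at an unadjusted p without the block. *Btg2*, an antiproliferative cofactor of mRNA deadenylation, was at 163, 212 and 199 CPM with *Sephs1* siRNA and at 138, 162 and 201 CPM with control siRNA. It was higher in pairs 1 and 2 and level in pair 3. *Plk2* had log2 ratios of 0.10, 0.13 and 0.14 in the pairs. Both had an unadjusted p under 0.05 with the block (0.0436 and 0.0155 by edgeR) and not without it. *Plk3*, a related kinase, and *Rprm*, a gene of G2 arrest read at under 2.2 CPM, had log2 fold changes of 0.11 (SE 0.16) and 0.18 (SE 0.27).

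Of the 12 apoptosis genes, 1 passed an unadjusted p by edgeR without the block, *Trp53inp1*, or 8.33% against 4.98% of all genes in that direction. With the block 3 were higher, *Trp53inp1*, *Eda2r* and *Apaf1*, and 1 was lower, *Tnfrsf10b*, against 13.1% and 11.2% of all genes. Their median log2 fold change was 0.11. *Bbc3*, the gene of the BH3-only protein PUMA, was at 5.41, 6.93 and 11.1 CPM with *Sephs1* siRNA and at 5.53, 5.20 and 10.1 CPM with control siRNA. *Bax*, the pore-forming effector that PUMA sets free, was at 49.4, 49.9 and 61.7 CPM with *Sephs1* siRNA and at 52.3, 49.4 and 69.0 CPM with control siRNA. In both, replicate 3 stood above the other replicates whichever siRNA was used. Their log2 fold changes were 0.16 (SE 0.35) and -0.08 (SE 0.15), and the 95% confidence interval of *Bbc3*, -0.67 to 1.00, was wide. *Pmaip1* was read too thinly to place, at 0.684, 1.84 and 1.42 CPM with *Sephs1* siRNA and at 0.931, 1.03 and 1.54 CPM with control siRNA.

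*Trp53inp1*, which encodes a p53 cofactor that also takes part in autophagy, was the apoptosis gene that passed an unadjusted p. It was at 38.0, 45.1 and 46.6 CPM with *Sephs1* siRNA and at 30.3, 38.6 and 37.1 CPM with control siRNA, so the lowest knockdown value lay within the control range while all 3 pairs were higher. The log2 fold change was 0.29 (SE 0.12, unadjusted p = 0.0494 and adjusted p = 0.58 by edgeR, adjusted p = 0.0535 with the block). The unadjusted p held when *Sephs1* siRNA replicate 1 or control siRNA replicate 2 was left out and rose to as much as 0.143 when any other library was.

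*Eda2r*, the receptor of ectodysplasin A2, had the largest log2 fold change of the 34, 0.54, in the fit with all libraries, with a wide error (SE 0.32, unadjusted p = 0.135 by edgeR, and 0.00633 with the block, adjusted p = 0.0891). It was at 8.29, 10.4 and 12.6 CPM with *Sephs1* siRNA and at 4.22, 7.05 and 10.2 CPM with control siRNA. Each knockdown library was above its same-numbered control, and the log2 ratio was 0.97, 0.56 and 0.31 in pairs 1, 2 and 3. With 1 library left out its log2 fold change ran from 0.27, without control siRNA replicate 1, to 0.88, without control siRNA replicate 3, where its unadjusted p was 0.0202 by edgeR. *Apaf1*, the scaffold of the apoptosome, differed little but without overlap, at 42.6, 43.2 and 43.0 CPM with *Sephs1* siRNA and at 40.0, 41.3 and 36.4 CPM with control siRNA (log2 fold change 0.13, SE 0.07, unadjusted p = 0.113 by edgeR and 0.0492 with the block). The 2 death receptors had no call without the block. *Fas* had a log2 fold change of 0.02 (SE 0.14), and *Tnfrsf10b*, the mouse TRAIL receptor, one of -0.12 (SE 0.10, unadjusted p = 0.0408 by edgeR with the block), with all 3 pairs below 0. The nuclease gene *Aen*, *Ei24* of the endoplasmic reticulum, *Perp* of cell junctions and *Pidd1* had log2 fold changes between -0.07 and 0.15, each within 1 SE of 0.

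The 5 genes of repair and nucleotide supply were the most even group. None passed an unadjusted p in either fit, and their log2 fold changes ran from 0.02 for *Ddb2* to 0.13 for *Xpc*, both damage-sensing genes of nucleotide excision repair. *Ercc5*, the endonuclease gene of the same pathway, was at 21.7, 22.4 and 22.2 CPM with *Sephs1* siRNA and at 20.9, 21.6 and 21.8 CPM with control siRNA, with a 95% confidence interval of -0.12 to 0.21. *Polk*, a polymerase that copies past damaged bases, and *Rrm2b*, the p53-inducible subunit of ribonucleotide reductase, had log2 fold changes of 0.05 (SE 0.14) and 0.04 (SE 0.21). *Ddb2* shares 652 exonic bases with *Acp2* on the opposite strand.

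Set by half-site, the 10 genes with an element in their promoter windows had log2 fold changes between -0.22 and 0.17 with a median of -0.04. None of them passed an unadjusted p without the block, and 1, *Gadd45a*, was lower with it. The 16 genes with windows but no element ran from -0.31 to 0.54 with a median of 0.15. They held 4 of the 5 genes that passed, *Mdm4*, *Gadd45b*, *Sesn2* and *Cd82*. With the block 10 of the 16 passed, 8 higher and 2 lower, against 13.1% and 11.2% of all genes. Without the block 4.98% of all genes were higher and 3.63% lower at an unadjusted p. *Trp53inp1* was among the 8 genes with no window in the table. These are descriptions of small lists, and no test was made between them.

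Several of these genes differed more between replicate numbers than between siRNAs. Both replicate 3 libraries were above the other 4 for 9 of the 34 genes, *Bbc3*, *Bax*, *Aen*, *Phlda3*, *Gadd45a*, *Plk2*, *Zmat3*, *Rprm* and *Pidd1*, or 26.5%, against 15.004% of all genes tested. They were below the other 4 for 5 genes, *Mdm2*, *Ccng1*, *Sesn1*, *Fas* and *Tnfrsf10b*, or 14.7%, against 16.9%. Replicate 1 stood above the rest for 0 members and below for 2, against 8.82% and 11.0% of all genes, and replicate 2 above for 2 and below for 3, against 8.25% and 7.66%. The replicate number was singled out after the values were seen, and what it stands for is not given in the labels.

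**Figure D4:**
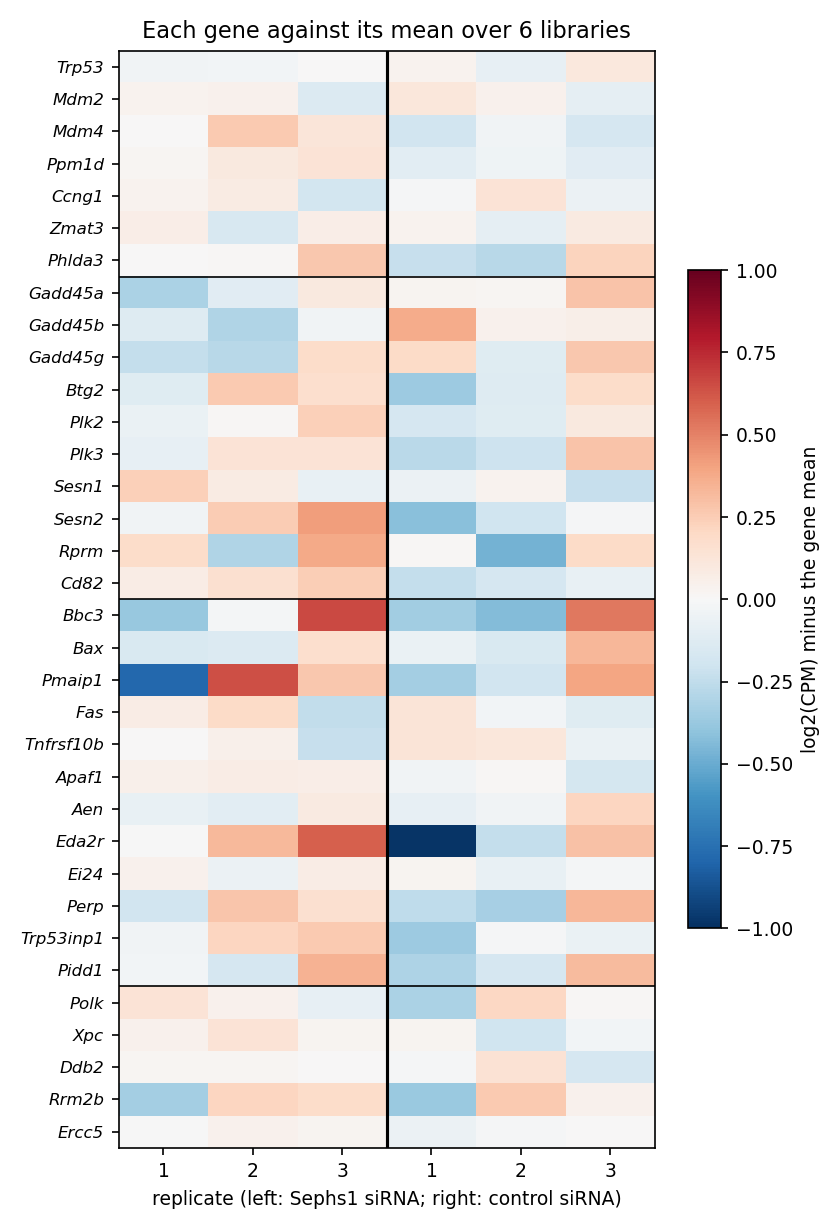
Log2 CPM of each gene minus its mean over the 6 libraries, with *Sephs1* siRNA replicates in the left 3 columns and control siRNA replicates in the right 3, and horizontal lines between the role groups. The third column of each side is redder for *Bbc3*, *Bax*, *Aen* and *Gadd45a*, while *Cd82* and *Sesn2* are redder on the left in each replicate, and the lowest value is *Eda2r* in control siRNA replicate 1.

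Other genes of the p53 pathway, 57 regulators and further targets drawn up from general knowledge, were read beside them, with 56 tested. At an unadjusted p under 0.05, 5 of the 56 were higher and 0 lower with edgeR, against 4.98% and 3.63% of all genes. DESeq2 gave 4 higher and 1 lower, and its share over all genes is not given here. The median log2 fold change of the 56 was 0.02, with 53.6% positive, against 52.0% of all genes. The groups did not overlap for 7 that were higher and 8 that were lower, or 26.8%, against 14.9% of all genes. With the block, 13 were higher and 6 lower at an unadjusted p, against 13.1% and 11.2% of all genes. *Cdkn1a* was at 212, 210 and 235 CPM with *Sephs1* siRNA and at 214, 192 and 207 CPM with control siRNA. These groups overlapped, and the log2 fold change was 0.10 (SE 0.08, 95% confidence interval -0.08 to 0.28, unadjusted p = 0.229 by edgeR).

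*Hipk2*, which encodes a kinase that phosphorylates p53 and steers it towards apoptosis, had the smallest unadjusted p of these genes by edgeR without the block. It was at 22.3, 22.8 and 23.1 CPM with *Sephs1* siRNA and at 15.002, 17.4 and 15.7 CPM with control siRNA, well apart. The log2 fold change was 0.50 (SE 0.09, adjusted p = 0.342 by edgeR, 0.0392 with the block and 0.00076 with DESeq2). *Fam212b*, now *Inka2*, a regulator of the kinase PAK4, was at 6.17, 6.16 and 6.12 CPM with *Sephs1* siRNA and at 3.83, 3.51 and 4.63 CPM with control siRNA (adjusted p = 0.392 by edgeR, 0.0747 with the block and 0.015 with DESeq2). *Crebbp*, a histone acetyltransferase that is a coactivator of p53, had a log2 fold change of 0.17 (SE 0.07, unadjusted p = 0.0488 by edgeR), which did not pass without any one of the 6 libraries. *Thbs1*, the gene of thrombospondin 1, had a log2 fold change of -0.27, with all 3 knockdown libraries below all 3 control libraries. At an adjusted p it fell with the block (0.0356) and not without it (0.647 by edgeR and 0.318 with DESeq2), and its unadjusted p without the block was 0.0867 by edgeR and 0.016 with DESeq2.

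The other genes of that list that passed an unadjusted p were mitotic genes. *Gtse1*, whose product binds p53 in G2, was at 24.7, 30.4 and 25.3 CPM with *Sephs1* siRNA and at 14.0, 16.5 and 22.4 CPM with control siRNA. *Ckap2*, a spindle gene, was at 44.0, 54.0 and 42.6 CPM with *Sephs1* siRNA and at 19.7, 26.6 and 39.1 CPM with control siRNA, and its unadjusted p passed 0.05 without *Sephs1* siRNA replicate 2 or control siRNA replicate 2. In both, control replicate 3 stood nearest to the knockdown libraries. Beside them stood 30 proliferation genes that p53 is known to repress through p21. At an unadjusted p (edgeR) 16 were higher and 0 lower, against 4.98% and 3.63% of all genes. Their median was 0.54 on the log2 scale, with 0.93, 0.71 and 0.11 as medians in pairs 1, 2 and 3. The rise was uneven, as *Mcm2*, *Mcm3*, *Mcm5*, *Mcm6* and *Pcna* ran from -0.10 to 0.20, and *Ccnb1*, *Plk1* and *Aurka* from 0.65 to 0.74. The summed level of the 30 was 1450 to 1752 CPM with *Sephs1* siRNA and 866 to 1447 CPM with control siRNA. Of 22 interferon genes, since interferon is known to raise *Trp53* and *Fas*, 20 were tested. At the same unadjusted p, 16 were higher and 0 lower, against the same shares of all genes, with a median of 1.148. Their summed level was 190 to 269 CPM with *Sephs1* siRNA and 129 to 166 CPM with control siRNA. At an adjusted p under 0.05, no gene of either list passed with edgeR without the block, against 0.0141% of all genes. With the block 4 interferon genes and 0 proliferation genes rose, against 0.83% of all genes. DESeq2 without a block called 7 genes higher in each list, and its share over all genes is not given here. The part of proliferation and of the interferon response in the values of *Mdm4*, *Cd82*, *Sesn2* and *Trp53inp1* was not tested.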

How the data were processed

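Reads were aligned by the authors to mm10 with HISAT2 2.1.0 and quantified with StringTie 1.3.4d, per the methods and the submitters' processing notes. The deposited table gives, for each gene and library, a raw read count and an FPKM value made by the authors. Genes with at least 1 read in every library were kept, as in the methods. Counts were tested with edgeR 4.0.16 (R 4.3.3, TMM scaling, quasi-likelihood test, Benjamini-Hochberg adjustment over 14223 genes). The SE of a gene was its log2 fold change over the root of its F statistic. FPKM values served for levels between genes.

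The genes and lists were chosen with earlier results of these data known. By rule, values in every library were printed for *Trp53*, *Mdm2*, each gene at an unadjusted p under 0.05 without the block or an adjusted p under 0.05 with it, and each gene whose groups did not overlap. *Cdkn1a* and the other pathway genes that passed either threshold were named too. Library values of other genes were added after they were seen. The methods call the replicates biological and count each set of primary cultures as an independent trial in cell-based experiments, and the labels do not tie a library to a culture. Deviations from group means correlated at 0.65, 0.34 and 0.61 between same-numbered libraries, each over 0.1, and the numbers were therefore used as pairs, although no label states a pairing. No pair of libraries in a group differed by as little as sampling noise. Alternatives were RLE scaling, other filters, DESeq2 1.42.0, limma 3.58.1 on log2 FPKM with 1 or 0.1 added, the block and each library left out. The fits were tested on simulated data. Gene coordinates and promoter windows came from RefSeq on GRCm38.p6, and exon overlaps from GENCODE M21.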

Additional observations from a re-analysis of the deposited data

How the results depend on the processing

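With 3 libraries a group, changes of the size seen here, under 1.5-fold, rest on few degrees of freedom, and genes read at a few CPM, such as *Pmaip1*, carry wide errors. The cause of the shifts below was not tested. The fits on log2 FPKM used no TMM scaling. In the count fits the TMM factors were 1.006, 1.008 and 1.051 with *Sephs1* siRNA and 0.960, 0.969 and 1.008 with control siRNA. The count of the 34 genes at an unadjusted p was 5 and became 13 with the replicate block, 8 and 12 when the blocked fit lacked pair 2 or pair 3 (15.8% and 26.1% of all genes in those fits), and 1 to 7 with 1 library left out. The fits without a pair were chosen after seeing the data. At an adjusted p the count was 0 and became 2 with the replicate block and 7 when the blocked fit lacked pair 3, in which 8.40% of all genes passed. The 7 were *Cd82*, *Sesn2*, *Trp53inp1*, *Btg2*, *Eda2r* and *Phlda3*, higher, and *Gadd45b*, lower. The median of the 34 was 0.10. On log2(FPKM + 0.1) with limma it was 0.14, and the median of all genes in that fit is not given here. The median of the 34 was 0.061, 0.052 and 0.12 when the blocked fit lacked pair 1, 2 or 3. It ran from 0.019 to 0.12 with 1 library left out. The other p53 pathway genes had 5 at an unadjusted p and 19 with the replicate block, where 24.3% of all genes passed. Without pair 1, 2 or 3 the blocked fit gave 10, 15 and 23, against 14.5%, 15.8% and 26.1% of all genes. With 1 library left out the count was 3 to 12. For this list and for the 34 genes, the shares of all genes with 1 library left out are not given here. *Sephs1* was called with DESeq2 (log2 fold change -0.77), with the block (-0.79) and with the block without pair 1 (-0.96) or pair 3 (-0.67), and ran from -1.02 to -0.61 with 1 library left out.

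Of 656 values of named genes, 597 kept their direction and their side of an adjusted p of 0.05. Another 18 passed it only in the alternative, and 41 changed sign. No named gene passed it in the fit without the block, so no such call could be lost. Losses of the unadjusted p with 1 library left out stand beside each gene in the results. Other settings also took calls past 0.05. For *Trp53inp1* these were RLE scaling (0.0505) and no filter (0.0503), by edgeR. For *Gadd45b* they were limma on log2(FPKM + 0.1) (0.0634) and log2(FPKM + 1) (0.0651). For *Crebbp* they were the same edgeR settings (0.0523 and 0.0589), the same limma settings (0.0532 and 0.0576) and DESeq2 (0.0677). *Crebbp* also lost its call with the block without pair 1 (0.0709 by edgeR). On log2(FPKM + 0.1) and log2(FPKM + 1) the signs of *Trp53* (0.018 and 0.018), *Mdm2* (0.015 and 0.015), *Ccng1* (0.013 and 0.013) and *Zmat3* (0.037 and 0.032) turned. With the block and without a pair, so did those of *Zmat3* (0.0041), *Pmaip1* (-0.27), *Fas* (-0.091), *Perp* (-0.055), *Pidd1* (-0.0019), *Polk* (-0.15), *Ddb2* (-0.047) and *Rrm2b* (-0.0081). With 1 library left out, the ranges that crossed 0 were -0.10 to 0.00032 for *Trp53*, -0.097 to 0.012 for *Mdm2*, -0.095 to 0.032 for *Ccng1*, -0.077 to 0.053 for *Zmat3*, -0.0042 to 0.31 for *Plk3*, -0.0017 to 0.35 for *Rprm*, -0.17 to 0.54 for *Bbc3*, -0.20 to 0.077 for *Bax*, -0.16 to 0.46 for *Pmaip1*, -0.076 to 0.13 for *Fas*, -0.14 to 0.028 for *Aen*, -0.074 to 0.30 for *Pidd1*, -0.088 to 0.17 for *Polk*, -0.053 to 0.093 for *Ddb2* and -0.12 to 0.18 for *Rrm2b*.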
